A study of Mus musculus with 6 samples.

Results

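Expression of 10 genes of fat cells was followed in RNA from the corpus, the main body of the stomach, whose glands make acid and pepsinogen. They were Adipoq, Cfd, Fabp4, Plin1, Plin4, Lpl, Lep, Cidec, Retn and Pparg. The set was chosen with earlier results of these data known, and all 10 of 10 were found by symbol among the 18988 rows that were deposited. The 6 libraries came from 6 mice on a C57BL/6 background, 1 mouse per library. The 3 controls carried the genotype Ras;APC FF (replicates 1 to 3) and the other 3 mice carried PGC;Ras;APC FF (replicates 4 to 6), so that Ras;APC FF was common to both groups. The labels give no meaning for PGC or FF, no age, no sex and no induction scheme, and the comparison asks how the corpus differs when the PGC component is present.

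White adipocytes store triglyceride in a lipid droplet coated by perilipins and release hormones, the adipokines, into blood. The nuclear receptor PPARG, together with C/EBP transcription factors, drives their differentiation and holds many of their genes active. In the stomach wall, fat cells lie in the outer layers and in the attached omental and mesenteric fat, outside the glands. Several genes of the set are also used elsewhere. Fabp4 is made in capillary endothelium and macrophages, Lpl in muscle and macrophages, and Pparg in macrophages and gut epithelium, whereas Adipoq, Plin1 and Lep are largely restricted to fat.

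The hormone genes most typical of fat were near 0 in PGC;Ras;APC FF corpus, while Fabp4, Lpl, Cidec and Pparg kept a clear signal. Which cells gave that signal was not tested. Adipoq was at 2.64% and Cfd at 4.72% of their control mean FPKM (a level scaled by gene length and by the size of the library), and both fell past the threshold. Plin1, Retn and Lep, too low for the test, were lower in every PGC;Ras;APC FF library than in any control. Cidec stood at 92.6% of its control mean and Pparg at 146.6%, and neither passed the threshold. In bulk tissue, fewer fat cells in the piece sampled and less RNA per fat cell cannot be told apart. The amount of outer layers or attached fat in each piece was not tested.

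The sequences before the transcription starts of 5 of these genes are given because the genes behave differently here although all are expressed in adipocytes. RefSeq (GRCm38.p6, the assembly of mm10) held starts for 8 of the 10 genes, 11 starts in all, and each sequence holds the 250 bases before a start, 5′ to 3′ on the gene's strand. The Plin1 window lies partly inside the gene as GENCODE draws it, since RefSeq sets the start farther in. Cfd and Adipoq are the genes that fell, Plin1 and Lep are the fat-restricted genes with a match close to the start, and the Pparg start shown is the one farthest downstream. Capitals mark matches to TTGCNNAA, the core bound by C/EBP factors, searched on both strands. The Cfd sequence is chr10:79890603-79890852 (plus strand), Adipoq chr16:23146286-23146535 (plus), Plin1 chr7:79732777-79733026 (minus), Lep chr6:29059971-29060220 (plus) and Pparg chr6:115421816-115422065 (plus).
Cfd: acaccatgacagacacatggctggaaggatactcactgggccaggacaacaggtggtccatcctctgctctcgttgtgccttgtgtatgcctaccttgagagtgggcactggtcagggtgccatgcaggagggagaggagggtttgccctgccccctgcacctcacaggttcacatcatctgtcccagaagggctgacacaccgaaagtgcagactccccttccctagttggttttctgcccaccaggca
Adipoq: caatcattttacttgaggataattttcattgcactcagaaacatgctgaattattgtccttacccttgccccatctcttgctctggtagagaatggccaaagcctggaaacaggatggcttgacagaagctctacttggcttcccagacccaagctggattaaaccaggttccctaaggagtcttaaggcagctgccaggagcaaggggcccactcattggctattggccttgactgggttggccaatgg
Plin1: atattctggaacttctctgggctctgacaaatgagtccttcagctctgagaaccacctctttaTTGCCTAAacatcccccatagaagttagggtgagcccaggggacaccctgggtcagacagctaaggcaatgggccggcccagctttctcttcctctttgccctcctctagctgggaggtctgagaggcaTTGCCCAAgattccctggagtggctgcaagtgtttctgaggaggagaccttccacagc
Lep: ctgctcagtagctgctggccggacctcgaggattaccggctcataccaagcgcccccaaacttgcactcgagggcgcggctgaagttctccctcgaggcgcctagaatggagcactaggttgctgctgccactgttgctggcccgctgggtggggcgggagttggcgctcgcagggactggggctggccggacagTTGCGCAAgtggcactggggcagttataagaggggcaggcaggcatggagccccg
Pparg: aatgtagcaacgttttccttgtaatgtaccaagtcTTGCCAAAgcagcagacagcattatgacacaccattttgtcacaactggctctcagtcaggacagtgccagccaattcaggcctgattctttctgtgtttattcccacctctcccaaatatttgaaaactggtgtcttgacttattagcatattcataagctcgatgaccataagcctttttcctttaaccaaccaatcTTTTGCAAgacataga

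The C/EBP core occurred before 4 of the 11 starts and before 9.56% of all 32851 starts in the RefSeq table. In Lep it lay at -55 to -48 from the start and, being a palindrome, matched on both strands. In Plin1 it lay at -187 to -180 and at -58 to -51, and in the Pparg sequence at -215 to -208 and, on the other strand, at -16 to -9. Cidec, whose level hardly differed and whose sequence is not shown, held it at -198 to -191 from 1 of its starts. The nuclear receptor half-site AGGTCA was found before 2 of the 11 starts, both of Pparg and neither shown, against 14.0% of all starts, and no match of the 2 motifs overlapped another. A match is a description of letters. The Cfd and Adipoq sequences held neither motif in this window.

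Among the adipokines, Adipoq encodes adiponectin, a hormone secreted by mature fat cells (chromosome 16, 23146536 to 23158028, plus strand, GENCODE M21 on GRCm38). It was at 3.20, 3.12 and 5.03 FPKM in control replicates 1 to 3 and at 0.25 and 0.05 FPKM in replicates 4 and 5, and it was listed at 0 in replicate 6. Even the highest PGC;Ras;APC FF library was far below the lowest control. The means were 3.78 ± 1.08 and 0.1 ± 0.132 FPKM (SD, n = 3 each), a difference of -2.10 ± 0.18 (SE) on the log2(FPKM + 1) scale, with a limma adjusted p of 0.0103. That scale understates the change of a gene this low. Adipoq passed the filter on low values (at least 1 FPKM in at least 3 of 6 libraries) only through the controls, and with no filter its limma adjusted p was 0.0495, as it was for Cfd.

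Cfd encodes adipsin, complement factor D, the serine protease that starts the alternative complement pathway (chromosome 10, 79890853 to 79892655, plus strand). It was at 14.99, 12.58 and 18.01 FPKM in the controls, against 0.80, 1.20 and 0.15 FPKM in replicates 4 to 6. The groups were widely apart, and replicate 6 was the lowest. The means were 15.2 ± 2.72 and 0.717 ± 0.530 FPKM (SD, n = 3 each), a difference of -3.27 ± 0.25 (SE) on the log2(FPKM + 1) scale with a limma adjusted p of 0.00908.

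Neither call held when a control was left out. Without replicate 1, 2 or 3, 0 members passed in limma with 3, 3 and 2 of 6 tested members at an unadjusted p under 0.05, and Adipoq then missed the filter. Over all genes 0 passed in each of these fits too. At an unadjusted limma p under 0.05 there were 2270 of 11754, 2516 of 11759 and 3056 of 11759 genes. With the genes of the original filter kept, a setting chosen after seeing the data, the limma adjusted p of Adipoq was 0.0856, 0.0827 and 0.0607 without replicates 1, 2 and 3, and its differences of -2.19, -2.20 and -1.93 were close to the value with all libraries. For Cfd they were 0.0856, 0.0827 and 0.0918 with differences of -3.28, -3.40 and -3.15. Over all genes 0, 0 and 1 passed in limma with the original filter kept. Without replicate 6 both still passed, at -2.04 for Adipoq and -3.01 for Cfd.

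Retn encodes resistin, in mice a hormone of fat cells (chromosome 8). It was at 2.18, 1.12 and 0.77 FPKM in the controls, against 0.05 and 0.39 FPKM in replicates 4 and 5, and was listed at 0 in replicate 6. The groups did not overlap, and replicate 3, the highest control for Adipoq and Cfd, was the lowest for Retn. The means were 1.36 ± 0.734 and 0.147 ± 0.212 FPKM (SD, n = 3 each).

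Lep encodes leptin, the hormone by which fat signals energy stores to the brain (chromosome 6). It was at 0.09, 0.04 and 0.08 FPKM in the controls, against 0.02 FPKM in replicate 4, and was listed at 0 in replicates 5 and 6. These values are near the 0.01 FPKM steps of the deposited table, so they show little beyond their order. Retn, Lep and Plin1 were outside the filter on low values. With no filter their limma adjusted p were 0.137, 0.142 and 0.137, with differences of -1.01, -0.088 and -0.81 on the log2(FPKM + 1) scale.

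Of the droplet proteins, Plin1 encodes perilipin 1, the adipocyte coat protein that controls access of lipases to stored fat (chromosome 7). It was at 0.62, 0.58 and 1.14 FPKM in the controls, against 0.01 FPKM in replicate 4, and was listed at 0 in replicates 5 and 6. The groups did not overlap. Plin4, a perilipin of fat, heart and skeletal muscle (chromosome 17), was at 3.03, 3.28 and 4.63 FPKM in the controls, against 2.59, 1.75 and 0.90 FPKM in replicates 4 to 6. Its groups were also apart, by a small margin, and its difference of -0.79 ± 0.25 (SE) did not pass (limma adjusted p = 0.0941).

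Cidec, which promotes the fusion of small droplets into a large one (chromosome 6), behaved unlike Plin1. It was at 9.42, 10.04 and 11.02 FPKM in the controls, against 9.74, 8.83 and 9.64 FPKM in replicates 4 to 6. The groups overlapped, with a difference of -0.10 ± 0.12 (SE) on the log2(FPKM + 1) scale (limma adjusted p = 0.553). Per length, Cidec was more abundant than Adipoq and Plin1 in every library, and it remained so where those genes were close to 0.

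**Figure D1:**
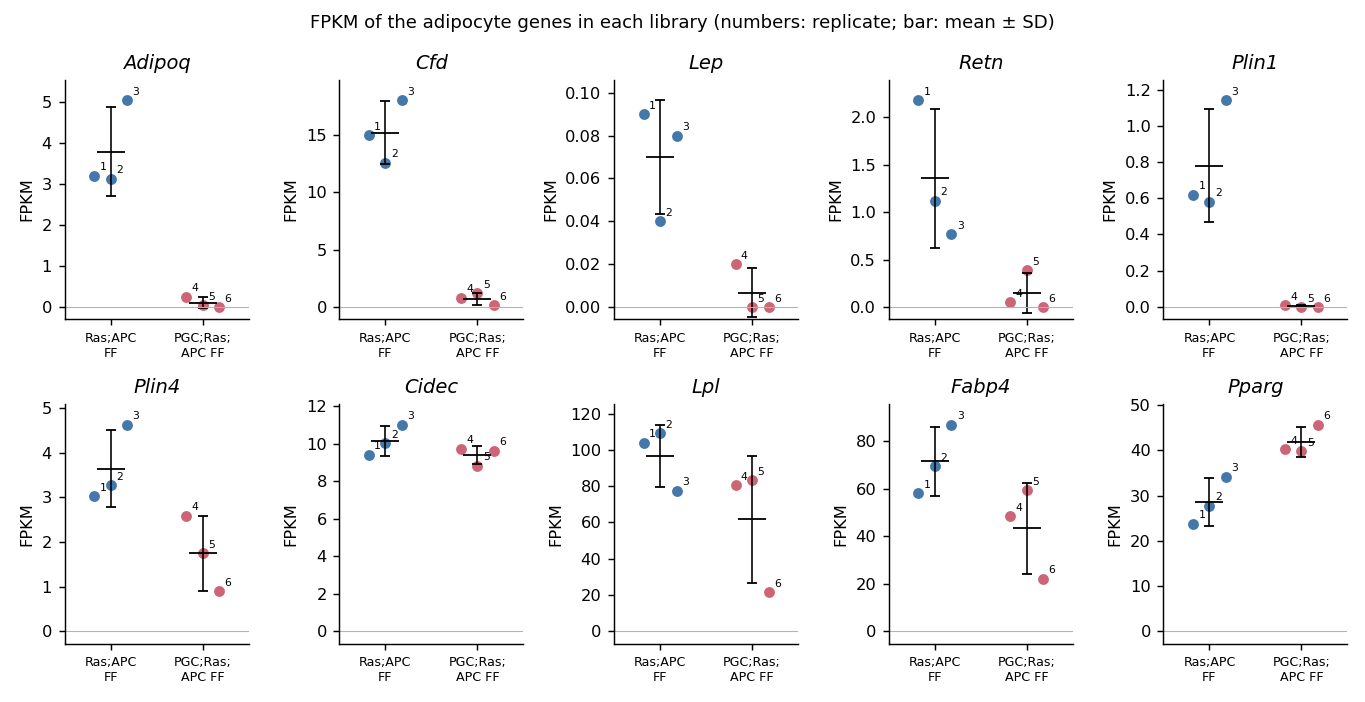
FPKM of the 10 adipocyte genes in each library, on linear axes, with replicate numbers beside the points and the mean ± SD as bars (n = 3 per group). Adipoq, Cfd, Lep, Retn and Plin1 lie near 0 in all PGC;Ras;APC FF libraries, Cidec is level between 8.83 and 11.02 FPKM, and Pparg is higher in PGC;Ras;APC FF.

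Lpl and Fabp4 handle fatty acids. Lpl encodes lipoprotein lipase, which frees fatty acids from circulating triglyceride (chromosome 8). It was at 103.89, 109.13 and 77.39 FPKM in the controls, against 80.43, 83.36 and 21.42 FPKM in replicates 4 to 6. Replicate 6 stood far below the rest, while replicates 4 and 5 were above control replicate 3. The difference of -0.85 ± 0.48 (SE) did not pass (limma adjusted p = 0.224), and without replicate 6 it was -0.22.

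Fabp4, a carrier of fatty acids in the cytosol (chromosome 3), was at 58.15, 69.32 and 86.85 FPKM in the controls, against 48.38, 59.26 and 22.07 FPKM in replicates 4 to 6. Replicate 5 lay above control replicate 1, so the groups overlapped. The difference was -0.80 ± 0.35 (SE, limma adjusted p = 0.141), and -0.39 without replicate 6. Both genes were thus far more abundant than Adipoq, and for both the difference was nearer 0 without replicate 6.

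Pparg, the transcription factor of the set (chromosome 6, 115360951 to 115490399, plus strand), was the 1 member of the 10 that was higher in every PGC;Ras;APC FF library than in any control. It was at 23.74, 27.76 and 34.21 FPKM in the controls, against 40.19, 39.81 and 45.65 FPKM in replicates 4 to 6. The difference of 0.55 ± 0.16 (SE) on the log2(FPKM + 1) scale did not pass (limma adjusted p = 0.0901), and after median-of-ratios scaling it was 0.24 (limma adjusted p = 0.281). Pparg transcripts start at several places, and the longer isoform typical of fat cells begins at the downstream start. Gene-level FPKM do not separate these starts.

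In number, 2 of the 7 tested members fell and 0 rose, and 5 did not pass. Over all 11857 tested genes, 0.0422% fell and 0.11% rose at the same limma adjusted threshold of 0.05. The members were chosen with earlier results of these data known, and Adipoq reached the filter only through the controls. The shares over all genes are thus given for reference, and the set was not tested against them. At an unadjusted p under 0.05 there were 5 of the 7 members, against 35.4% of all tested genes. Of all 10 members, 6 were lower in every PGC;Ras;APC FF library than in every control and 1 was higher in every one, where 5.65% and 31.9% of all 18988 rows did so (5.47% and 42.7% of the tested genes). For each of these 7 members the exact two-sided permutation test gave p = 0.1, the smallest that 3 against 3 mice allow, and for the others it gave 0.2 (Fabp4), 0.3 (Lpl) and 0.3 (Cidec). The median difference was -0.81 over all 10 members and 0.14 over all 18988 rows. Over the 7 tested members it was -0.80, and over all tested genes 0.26. That general shift was -0.0071 after median-of-ratios scaling, which moved Cidec to -0.39 and left the called members at -2.23 (Adipoq) and -3.45 (Cfd).

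**Figure D2:**
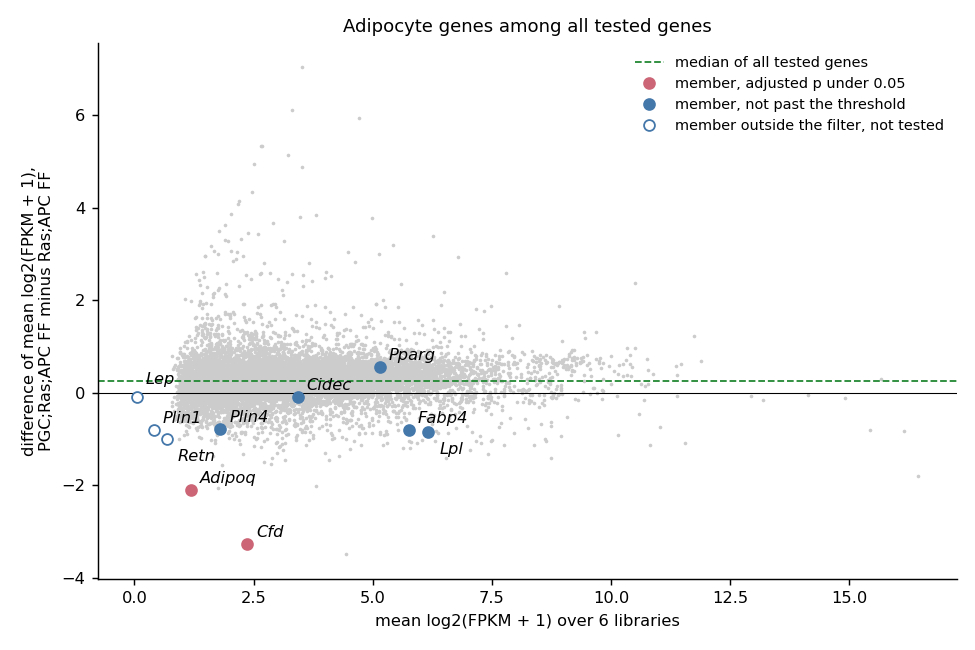
Difference of mean log2(FPKM + 1), PGC;Ras;APC FF minus Ras;APC FF, against mean log2(FPKM + 1) over the 6 libraries, for all 11857 tested genes (grey) and the 10 members (circles, open where not tested). Cfd at -3.27 and Adipoq at -2.10 lie below nearly all grey points, while Cidec and Pparg lie within the cloud around the dashed median of 0.26.

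By control mean, a level per gene length, the order was Lpl, Fabp4, Pparg, Cfd, Cidec, Adipoq, Plin4, Retn, Plin1 and Lep, and the neighbours Adipoq and Plin4, at 3.78 ± 1.08 and 3.65 ± 0.861 FPKM (SD, n = 3), did not differ beyond their spread. The members did not order the libraries alike. Over all 6 libraries, replicate 3 was the highest for 6 of the 10 members, replicate 1 for 2 (Retn and Lep), replicate 2 for 1 (Lpl) and replicate 6 for 1 (Pparg). Replicate 6 was the lowest library for 8 of the 10 members, with 4 of them listed at 0. Replicate 3 also differed in other respects. It was the only library with Y-linked Eif2s3y (13.15 FPKM) and the only one with Xist at 0, which reads as a male, while Xist was present in each of the other 5. The 3 most abundant genes of each library held 48.11%, 43.91% and 37.96% of its summed FPKM in the controls. In replicates 4 to 6 they held 32.65%, 31.69% and 16.13%. This share was thus lower in every PGC;Ras;APC FF library than in any control, and by far the lowest in replicate 6. The part of sex and of these library differences in the results was not tested, other than by leaving out each library.

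Markers of other layers and cell types moved as well. All 11 smooth muscle markers were lower in every PGC;Ras;APC FF library than in any control, with summed FPKM of 2193 to 3943 in controls and 991 to 1478 in PGC;Ras;APC FF, or 43.1% of the control mean, and none at 0. Of these 11, 0 passed over all genes in limma and 11 had an unadjusted p under 0.05, against 35.4% of all tested genes. The white adipocyte list, which contains the members, had 16 of 17 genes in the table and summed to 238 to 261 FPKM in controls and 115 to 204 in PGC;Ras;APC FF. Of the 16, 0 were at 0 in any control and 1, 2 and 4 in replicates 4, 5 and 6, with the fat-restricted Adipoq and Plin1 at 0 in replicate 6. By gene, 9 of the 16 were lower and 1 higher in every PGC;Ras;APC FF library and 6 overlapped. The shares over all rows were 5.65% and 31.9%. Outside the members, Mrap was at 10.4% and Car3 at 32.3% of the control mean. Acvr1c was at 77.0%, Lipe at 86.1%, Tusc5 at 88.8% and Adig at 123.7%. Mesothelial markers, of the outer lining of the stomach, had 2 of 7 higher and 0 lower in every PGC;Ras;APC FF library and 5 overlapping. Over all rows 31.9% were higher and 5.65% lower in this way. Every difference but that of Gpm6a (-0.79) was positive, with 0.18 for Wt1, 0.38 for Lrrn4 and 0.41 for Upk1b, none of which was tested. Of the 4 tested, 0 passed in limma and 2 had an unadjusted p under 0.05. The most abundant were Krt19, a keratin of corpus epithelium too, at 1041 ± 96.4 and 2049 ± 418.8 FPKM, and Gpm6a, at 9.46 ± 0.595 and 5.73 ± 3.52 FPKM (SD, n = 3 each). Of the defining markers, picked after their values were seen, Msln was at 0.57 ± 0.452 and 3.37 ± 2.33 FPKM (limma adjusted p = 0.0901) and Upk3b at 1.04 ± 1.19 and 2.23 ± 1.35 FPKM (limma adjusted p = 0.225). The 7 markers summed to 940 to 1119 FPKM in controls and 1695 to 2514 in PGC;Ras;APC FF, nearly all of it Krt19, and none was at 0 in any library.

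Endothelial and macrophage markers, of cell types that also make Fabp4, Lpl or Pparg, gave another pattern. The 8 endothelial markers summed to 51.6 to 56.3 FPKM in controls and 50.2 to 63.6 in PGC;Ras;APC FF, with 0 past the threshold in limma and 1 at an unadjusted p under 0.05. The 8 macrophage markers summed to 103 to 178 and 141 to 402 FPKM, highest in replicate 6, with 0 of 7 tested past the threshold in limma and 3 at an unadjusted p under 0.05. The 7 fibroblast markers summed to 281 to 307 and 308 to 453 FPKM, with 0 past the threshold in limma and 3 at an unadjusted p under 0.05. None of the genes of these 3 lists was at 0 in any library. Of the 9 corpus epithelial markers in the table, 0 passed in limma and 2 had an unadjusted p under 0.05. Their summed FPKM was lower in every PGC;Ras;APC FF library than in any control, at 57.6% of the control mean, and lowest in replicate 6. Most of the control sum came from the gene Pgc. It was at 194208, 170504 and 140325 FPKM in the controls, against 87455, 78757 and 16059 FPKM in replicates 4 to 6. By marker, 2 of the 9 were lower with no overlap, 2 were higher and 5 overlapped. Over all rows 5.65% were lower and 31.9% higher in this way (5.47% and 42.7% of the tested genes). The list's mean log2(FPKM + 1) minus its control mean was 0.0094, 0.12 and -0.90 in replicates 4 to 6. Of the 4 sebaceous and glandular lipid markers found, Mgst1 was the 1 tested, at 25.04 ± 4.71 and 83.4 ± 53.0 FPKM (SD, n = 3 each, limma adjusted p = 0.0849). The part of any of these cell types in the values of Fabp4, Lpl or Pparg was not tested.

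**Figure D3:**
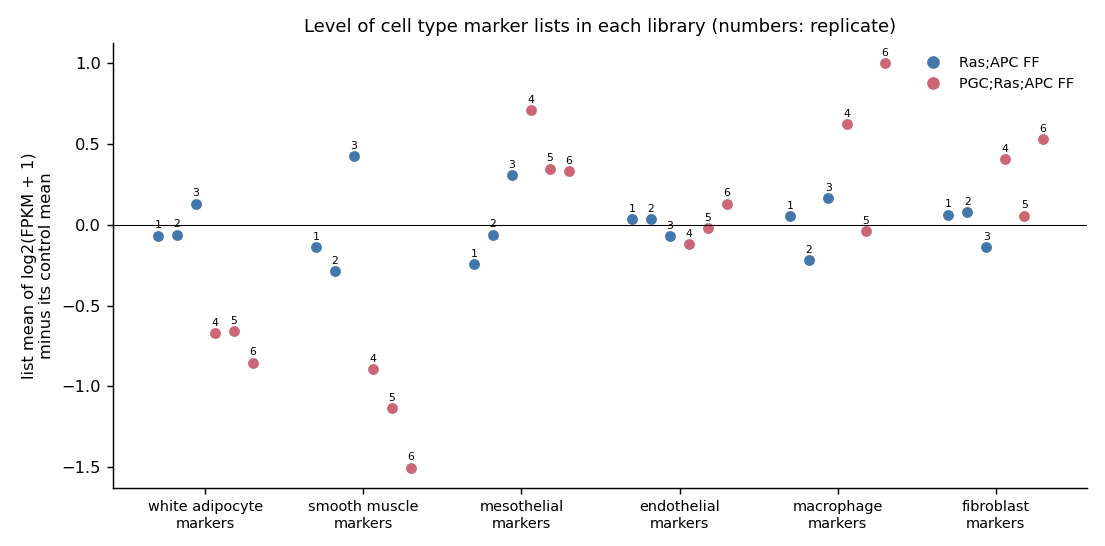
Mean log2(FPKM + 1) of each marker list in each library minus the list's control mean (points with replicate numbers). White adipocyte and smooth muscle markers are lower in all 3 PGC;Ras;APC FF libraries, mesothelial markers are higher by a small margin over control replicate 3, and endothelial markers stay within 0.13 of the control mean.

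Because muscle markers moved too, each member was also set against the summed smooth muscle markers of its own library, a ratio chosen after the values were seen and free of library scaling. Per 1000 FPKM of smooth muscle markers, Adipoq was at 1.23, 1.42 and 1.28 in the controls and at 0.169, 0.0386 and 0 in replicates 4 to 6. Plin1 was at 0.238, 0.265 and 0.289 in the controls and at 0.00677, 0 and 0 in the others. In the 3 controls both ratios were close to each other, although the muscle markers themselves differed, and the PGC;Ras;APC FF libraries stood far below. Cfd was at 5.76, 5.74 and 4.57 in the controls and at 0.541, 0.927 and 0.151 in replicates 4 to 6. By this ratio 4 members (Adipoq, Cfd, Plin1 and Lep) were lower with no overlap, as were 0.242% of all rows. Since the divisor was at 43.1% of its control mean, the ratio moves any level gene upward, and 73.9% of all rows were higher with no overlap, as were 2 members (Cidec and Pparg). Plin4, at 1.28 ± 0.189 and 1.34 ± 0.422 (SD, n = 3 each), overlapped, as did Fabp4, Lpl and Retn.

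Beyond the members, the role lists covered the wider machinery of fat storage. Of 110 genes in the role lists, members included, 107 were in the table and 75 were tested. Of those tested, 1 rose, 3 fell and 71 did not pass (limma adjusted p over all genes), where 0.152% of all tested genes passed in either direction. At an unadjusted p under 0.05 there were 35 of the 75, against 35.4% of all tested genes. The tested genes of the lists had a median difference of 0.12, against 0.26 over all tested genes. Without replicate 6, 5 rose and 7 fell of 74, where 832 rose and 106 fell of all 11600 tested genes. Without replicate 5, 3 rose and 4 fell of 75, where 413 rose and 45 fell of all 11654 tested genes. Without any 1 control 0 genes of the role lists passed in limma, and 0 did over all genes. Of the role list genes, 25, 19 and 23 had an unadjusted limma p under 0.05 without replicates 1, 2 and 3.

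The gene that rose was Apoc2, the apolipoprotein that activates lipoprotein lipase. It was at 1.01, 1.12 and 1.01 FPKM in the controls, against 6.36, 9.0 and 13.20 FPKM in replicates 4 to 6 (difference 2.31 ± 0.23 SE, limma adjusted p = 0.0119). The third gene that fell, beside Adipoq and Cfd, was Pi16, a marker of progenitor-like fibroblasts around vessels and in fat. It was at 8.37, 6.97 and 7.03 FPKM in the controls, against 2.65, 2.68 and 3.14 FPKM in replicates 4 to 6 (difference -1.14 ± 0.13 SE, limma adjusted p = 0.0269). Unlike for most members, replicate 6 was the highest of its group here. None of the other 5 tested genes of the progenitor list passed. Cd34, also found on vessel cells, was at 11.8 ± 1.07 and 9.82 ± 0.711 FPKM, and Ly6a at 54.4 ± 10.4 and 50.7 ± 27.3 FPKM (SD, n = 3 each). Cd55 was at 15.2 ± 1.71 and 19.6 ± 3.29 FPKM, and Pdgfra, a receptor of mesenchymal cells, at 4.69 ± 0.501 and 7.69 ± 2.01 FPKM.

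Of the lipid droplet proteins, the members Plin4 and Cidec included, 0 of 9 tested passed in limma. An unadjusted p under 0.05 was found for 5 of them, against 35.4% of all tested genes. Bscl2, encoding seipin of droplet formation, was at 43.2 ± 2.40 and 55.1 ± 3.88 FPKM, and Plin3, a perilipin of most cells, at 36.8 ± 3.52 and 43.2 ± 7.82 FPKM (SD, n = 3 each). Plin2, the perilipin of droplets outside fat, was at 6.42, 7.63 and 6.45 FPKM in the controls, against 13.77, 9.91 and 28.91 FPKM in replicates 4 to 6. Plin2 was thus higher in every PGC;Ras;APC FF library than in any control, as 42.7% of tested genes were (limma adjusted p = 0.0909 for Plin2). In those libraries Plin1 was at or near 0. Cideb, a droplet protein of liver and intestine, was at 11.2 ± 2.11 and 14.5 ± 4.12 FPKM.

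For triglyceride breakdown, 0 of 6 tested genes passed in limma and 1 had an unadjusted p under 0.05. Pnpla2, the first lipase of the pathway, was level at 52.7 ± 3.88 and 53.4 ± 4.51 FPKM, and Abhd5, its activator, was at 11.3 ± 1.82 and 13.9 ± 1.03 FPKM (SD, n = 3 each). Mgll, the monoglyceride lipase, was at 47.3 ± 7.38 and 32.4 ± 1.30 FPKM (limma adjusted p = 0.0883), and Pde3b, the phosphodiesterase through which insulin restrains lipolysis, at 6.75 ± 0.927 and 6.13 ± 0.885 FPKM.

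For triglyceride and fatty acid synthesis, 0 of 15 passed in limma and 6 had an unadjusted p under 0.05. Me1, a source of NADPH, was at 104.2 ± 9.16 and 128.3 ± 40.5 FPKM, and Agpat2 at 74.8 ± 11.2 and 90.0 ± 18.4 FPKM (SD, n = 3 each). Dgat2, which adds the last fatty acid of triglyceride, was at 35.6 ± 12.6 and 68.2 ± 22.5 FPKM (limma adjusted p = 0.0952), and Acly at 30.1 ± 3.80 and 33.4 ± 3.26 FPKM. Thrsp, a regulator of lipid synthesis prominent in fat and named after its values were seen, was lower in every PGC;Ras;APC FF library. It was at 5.43, 4.56 and 5.61 FPKM in the controls, against 1.02, 1.94 and 0.54 FPKM in replicates 4 to 6 (limma adjusted p = 0.0786). Of the 16 genes in the list, 3 (Thrsp, Acacb and Pck1) were lower and 4 higher in every PGC;Ras;APC FF library, against 5.65% and 31.9% of all rows. Among the 15 tested, 11 differences were positive.

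Around lipoprotein lipase, Sel1l, which with Lmf1 supports its folding, was at 25.8 ± 3.60 and 29.2 ± 1.36 FPKM, and Lmf1 at 12.4 ± 0.343 and 16.9 ± 2.46 FPKM (SD, n = 3 each). Cd36, a fatty acid receptor of fat, muscle and endothelium, was at 32.15, 36.59 and 32.83 FPKM in the controls, against 25.45, 24.07 and 6.37 FPKM in replicates 4 to 6 (limma adjusted p = 0.142). As with Lpl, replicate 6 was far below the rest. The fatty acid transporter Slc27a1 was at 7.94 ± 0.255 and 10.4 ± 4.14 FPKM. Of 10 tested genes in this list, 1 rose (Apoc2) and 9 did not pass.

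Among other secreted products, Rbp4, the retinol carrier, was at 6.35 ± 0.836 and 9.31 ± 2.03 FPKM, and Nampt at 7.74 ± 0.245 and 10.09 ± 2.19 FPKM (SD, n = 3 each). Neither passed (limma adjusted p = 0.113 and 0.185). Nnat was at 2.08 ± 1.27 and 2.89 ± 1.40 FPKM. Itln1, a lectin of intestinal goblet cells, was at 0.65 and 0.93 FPKM in replicates 1 and 2 and listed at 0 in replicate 3. In replicates 4 to 6 it was at 0.78, 4.07 and 7.38 FPKM. The adipokine receptors were present, and 0 of 3 tested passed in limma with 1 at an unadjusted p under 0.05. Adipor1 was at 59.3 ± 10.7 and 69.0 ± 11.3 FPKM and Adipor2 at 74.8 ± 11.5 and 68.1 ± 13.6 FPKM. Cdh13, which binds adiponectin on vessels, was at 2.56, 2.81 and 2.12 FPKM in the controls, against 5.47, 3.67 and 19.17 FPKM in replicates 4 to 6 (limma adjusted p = 0.113). The leptin receptor gene Lepr was at 0.64, 0.85 and 0.60 FPKM and at 0.68, 0.63 and 1.36 FPKM.

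The transcription factors of fat cell differentiation went in both directions, with 4 of 11 higher and 3 of 11 lower in every PGC;Ras;APC FF library, against 31.9% and 5.65% of all rows. Cebpb, which acts early in differentiation, was at 12.61, 11.22 and 14.31 FPKM in the controls, against 21.84, 22.20 and 59.97 FPKM in replicates 4 to 6 (limma adjusted p = 0.0903). Cebpa, which acts late, was at 5.77, 5.14 and 5.29 FPKM and at 8.67, 8.76 and 15.89 FPKM (limma adjusted p = 0.0849, named after its values were seen). In both, every PGC;Ras;APC FF library exceeded every control, as 42.7% of tested genes did. Ppard was at 23.7 ± 0.807 and 32.8 ± 7.86 FPKM and Rxra, the partner of PPARG on DNA, at 18.2 ± 1.27 and 19.9 ± 2.05 FPKM (SD, n = 3 each). Cebpd, which acts early beside Cebpb, was at 10.3 ± 4.69 and 19.8 ± 12.6 FPKM. Klf15, a factor of fat, muscle and liver metabolism named after its values were seen, was lower, at 14.6 ± 0.946 and 8.90 ± 3.37 FPKM (limma adjusted p = 0.110). In this list 0 of 9 passed in limma and 5 had an unadjusted p under 0.05.

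Of the other adipocyte-enriched genes, 0 of 8 tested passed in limma and 7 had an unadjusted p under 0.05, against 35.4% of all tested genes. Among the rows were 15 of them, and 9 were lower in every PGC;Ras;APC FF library and 2 higher, against 5.65% and 31.9% of all rows. Cav1, the main protein of caveolae and also abundant in muscle and endothelium, was at 28.9 ± 3.97 and 16.6 ± 3.56 FPKM, and Cav2 at 6.62 ± 0.250 and 11.4 ± 3.43 FPKM (SD, n = 3 each). Slc2a4, the insulin-responsive glucose transporter of fat and muscle, was at 27.4 ± 1.68 and 15.2 ± 7.98 FPKM, and Ccdc80 at 8.93 ± 2.12 and 9.85 ± 2.90 FPKM. Among low genes named after their values were seen, Orm1 was at 0.29, 0.28 and 0.38 FPKM in the controls and listed at 0 in all 3 PGC;Ras;APC FF libraries. Slc7a10 was at 0.18, 0.11 and 0.09 FPKM in the controls, was listed at 0 in replicates 4 and 5, and was at 0.01 in replicate 6.

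For brown fat, Ucp1, its thermogenic uncoupler, was not analysed here. Of 3 tested brown adipocyte genes 0 passed in limma and 1 had an unadjusted p under 0.05. Cox7a1, a muscle and brown fat subunit of cytochrome oxidase, was at 79.43, 89.58 and 196.60 FPKM in the controls, against 66.15, 96.24 and 24.55 FPKM in replicates 4 to 6. Prdm16 was at 4.71 ± 0.981 and 4.53 ± 0.234 FPKM, and Cidea at 1.08 ± 0.257 and 3.92 ± 3.34 FPKM (SD, n = 3 each). Otop1, a proton channel, was at 0.05 and 0.01 FPKM in control replicates 2 and 3, listed at 0 in replicate 1, and at 1.33, 0.35 and 4.53 FPKM in replicates 4 to 6. Of the 6 brown adipocyte genes found, 3 were higher and 0 lower in every PGC;Ras;APC FF library, against 31.9% and 5.65% of all rows.

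**Figure D4:**
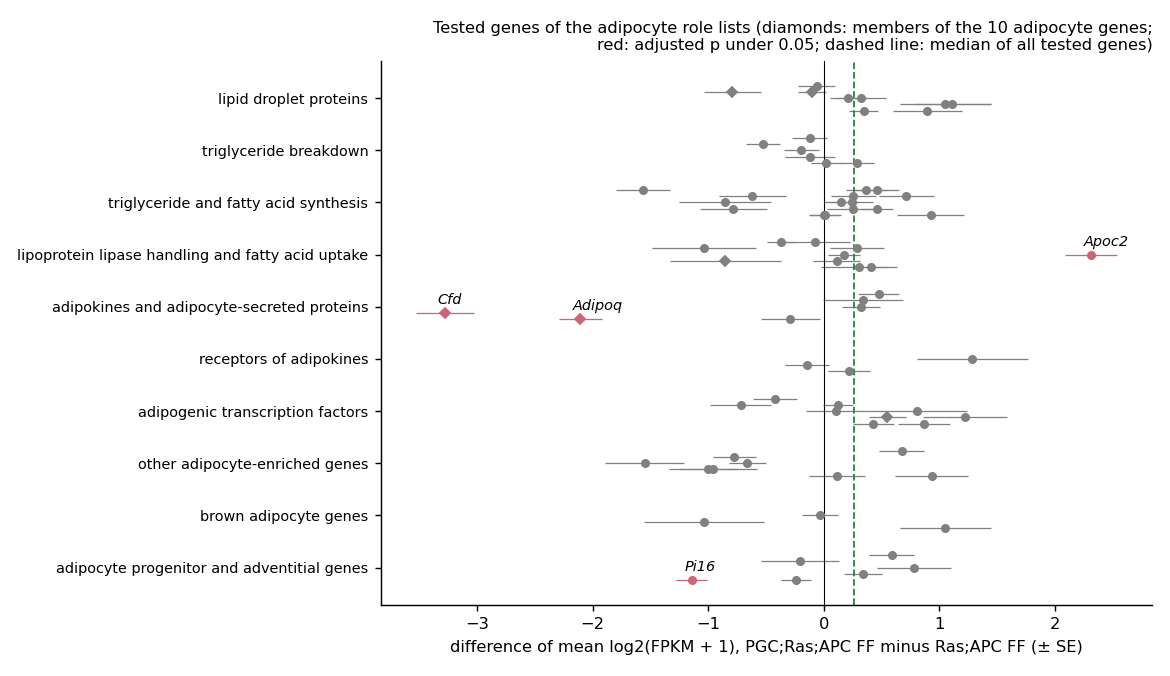
Difference of mean log2(FPKM + 1) with its SE for every tested gene of the 10 role lists, with diamonds for members, red for a limma adjusted p under 0.05 and a dashed line at 0.26, the median of all tested genes. Cfd, Adipoq and Pi16 lie on the lower side, Apoc2 at 2.31 on the higher side, and most of the other genes lie between -1 and 1.

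The relatives of 3 members were also read. Beside Fabp4, Fabp3, of heart and muscle, was at 261.3 ± 56.9 and 152.3 ± 93.4 FPKM, Fabp5, of epithelia, at 159.0 ± 73.8 and 184.5 ± 46.7 FPKM, and Fabp2, of intestine, at 7.90 ± 5.81 and 7.75 ± 1.39 FPKM (SD, n = 3 each). In that family 0 of 6 tested passed in limma and 1 had an unadjusted p under 0.05. Beside Retn, Retnla, made by alternatively activated macrophages and also by fat, was at 12.61, 7.72 and 19.29 FPKM in the controls, against 3.30, 13.19 and 2.01 FPKM in replicates 4 to 6. Retnlg, of myeloid cells, was at 0.05, 0.32 and 0.41 FPKM and at 0.19, 0.97 and 7.86 FPKM. Of the 6 tested alternative complement genes only Cfd passed. C3, the protein the pathway cleaves, was at 19.8 ± 6.89 and 27.7 ± 4.29 FPKM, and Cfb, the substrate of factor D, at 3.41 ± 0.440 and 9.18 ± 7.04 FPKM (SD, n = 3 each). The mean of both was higher in PGC;Ras;APC FF, and Cfb was higher in every PGC;Ras;APC FF library than in any control, as were 42.7% of tested genes.

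Likeness to Adipoq and Cfd was measured as the Euclidean distance between profiles of log2(FPKM + 1), each minus its control mean, over the 6 libraries. The 5 tested genes nearest to Adipoq were Adcyap1r1 (distance 0.588), Cybrd1 (0.992), Pln (1.09), Synpo2 (1.18) and Synm (1.18), and Cfd ranked 58. Those nearest to Cfd were Amy2a5 (1.76), Adipoq (2.13), Adcyap1r1 (2.28), Cybrd1 (2.5) and Pgc (2.94). Adcyap1r1 was at 6.08, 6.02 and 5.51 FPKM in the controls, against 0.68, 0.56 and 0.70 FPKM in replicates 4 to 6, without the higher value in replicate 3 that Adipoq had. Amy2a5 shares reads with near-identical amylase copies and is uncertain as a single gene. The measure follows the size of the difference between groups, so it says little about how genes vary within a group.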

How the data were processed

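RNA was measured in 6 libraries, 3 per genotype, grouped by the sample titles. The deposited values are FPKM, rounded by the authors to 2 decimals. Per the submitters' processing notes, STAR, featureCounts and build mm10 were used, and tool versions, annotation, strand setting and how FPKM were made from counts were not given in the sources used here. Sequencing depth is unknown, so no counting interval is given.

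FPKM are not counts, so log2(FPKM + 1) was tested two-sided by genotype with limma 3.58.1 (R 4.3.3, trended eBayes) over the 11857 genes with at least 1 FPKM in at least 3 of 6 libraries, with Benjamini-Hochberg adjustment over all of them and a threshold of 0.05. The fit had 4 residual degrees of freedom, or 7.72 once the prior was added. The fit was tested on simulated data. Single values were tested with exact permutation (scipy 1.17.1). Labels call each library a mouse, and p-values measure the spread between these mice.

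The members and gene lists were chosen with earlier results of these data known. Named are all members, genes of each role or family list past the threshold and up to 4 more of highest mean FPKM, and the 5 genes most like Adipoq and Cfd. Others are marked as named after their values were seen. Of 181 listed genes, 174 were in the table and 173 matched 1 gene of GENCODE M21 by symbol. Alternatives were other pseudocounts, filters, scalings, weights and leaving out each library. A gene of the listed families is not reported here.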

Additional observations from a re-analysis of the deposited data

How the results depend on the processing

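No paired analysis was possible because the replicate numbers of the groups (1 to 3 and 4 to 6) share no number. The 2 member calls, Adipoq and Cfd, held under every alternative except leaving out a control, and under array weights there were 3 with Pparg added. The 4 calls in the wider adipocyte genes became 34 with array weights, an estimate that stopped before convergence, and the 18 calls over all genes became 3892. Over all genes there were 34 with a pseudocount of 0.1, 28 as TPM and 9 with no filter. The split of higher and lower calls was 13 and 5 as reported, 9 and 10 under median-of-ratios scaling and 10 and 13 with quantiles equalized. Leaving out 1 library gave 0 to 938 calls over all genes, 0 to 2 among members and 0 to 12 in the wider adipocyte genes. With the original genes kept, chosen after seeing the data, these were 0 to 1076 (7 without replicate 4 and 586 without replicate 5), 0 to 2 and 0 to 14 (7 without replicate 5). At an unadjusted limma p under 0.05 each of these fits had at least 2270 genes. The median of the wider genes was 0.12, against -0.16 (median of ratios) and -0.17 (quantile), where the median over all tested genes was -0.0071 and -0.017. No member changed sign under the alternatives run. Pseudocounts of 0.1 and 0.5 moved Plin1 to -3.04 and -1.32, Retn to -2.79 and -1.50 and Lep to -0.67 and -0.17, since the scale sets the size of differences between values this low.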
